A study of Gallus gallus with 14 samples.

Results

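Horizontal cells are the inhibitory interneurons of the outer retina. They receive glutamate from cones and rods and feed back onto photoreceptor terminals. In the chick, LHX1 marks the axon-bearing type and ISL1 the axonless types, and PROX1 is made by horizontal cells of all types. ONECUT factors are needed in the mouse for horizontal cells to form. Retinal transcript levels of 8 genes, listed as markers or factors of these cells, were followed in 14 chick retinas. These were the transcription factors LHX1, ONECUT1, ONECUT2, ONECUT3, PROX1 and ESRRB, the calcium-binding protein CALB1 and the tropomyosin TPM3. They were taken by symbol from a table of 18631 genes.

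The retinas came from wild-type White Leghorn chicks that were 3 days old at the start. In 7 lens retinas a -10 D lens, which defocuses the image and induces myopia, had been worn for 6 days. The other 7 retinas were controls, for which the labels give no handling beyond the word control. The labels give neither the sex of the chicks nor say that the libraries are from separate animals. The p-values thus rest on sample-to-sample spread that may in part be technical. The assay was sequencing of total RNA after ribosomal RNA depletion, with read counts per gene scaled to the size of each library (CPM). Libraries held 32.3 to 42.6 M reads, as estimated from the step that 1 read makes in the values. The mean was 35.6 M ± 2.31 (SD, n = 7) among controls and 39.1 M ± 3.26 (SD, n = 7) after lens wear. Chromosome W transcripts were nearly absent from 3 libraries (control 65, lens 48 and lens 55), which summed to 2.20 to 4.56 CPM, against 616 to 721 CPM in the other 11. In birds females are ZW and males ZZ.

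All 8 genes were detected in every retina, over a wide range of depth. The numbers of reads behind a value were 15 to 76 for ONECUT3, 38 to 103 for ONECUT1, 58 to 101 for LHX1, 76 to 243 for ESRRB and 273 to 469 for TPM3. CALB1 had 1147 to 1951 reads, ONECUT2 1269 to 2420 and PROX1 3594 to 5192. These numbers cover counting error only, and levels are not ranked between genes because transcript lengths were not used here. The 8 genes are not all made by horizontal cells alone. PROX1 is also found in bipolar and amacrine cells, ONECUT factors in ganglion cells, and CALB1 in cones and amacrine cells. ESRRB is known in the mouse retina from rods, and TPM3 is found in many cell types. Which cells the LHX1 reads came from was not tested. In a bulk retina fewer cells of a type and less RNA per cell cannot be told apart.

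**Figure D1:**
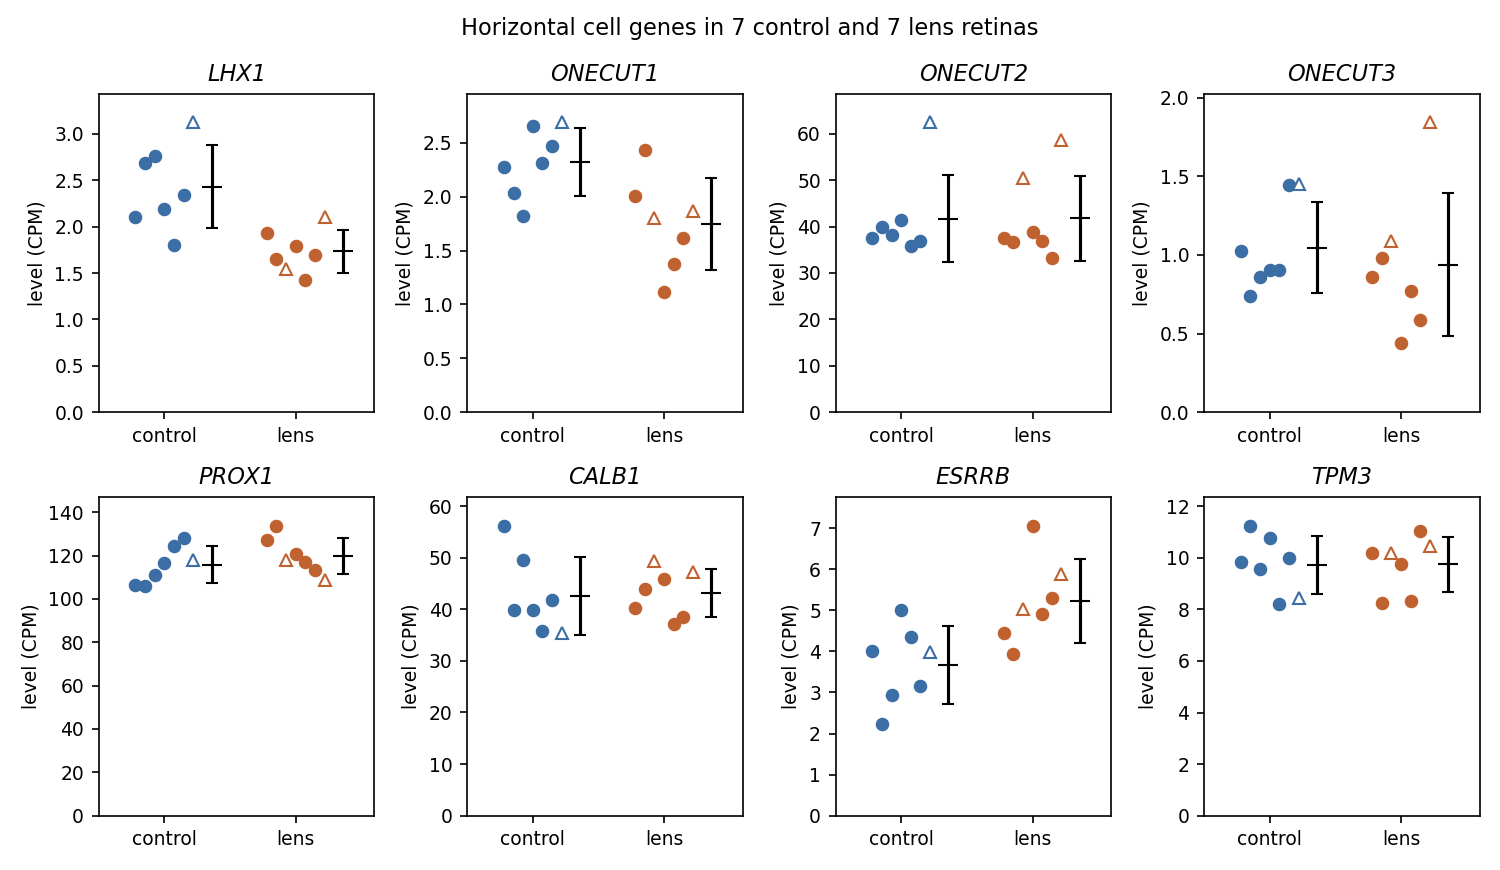
Level in CPM of each of the 8 genes in 7 control and 7 lens retinas, 1 point per retina, with the mean and SD at the right of each group. Open triangles mark the 3 retinas without W transcripts: they are the highest 3 for ONECUT2, and the groups overlap in every panel.

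Lens wear was compared first. None of the 7 tested genes passed the threshold of 0.05 (limma, Benjamini-Hochberg adjustment over all 11132 tested genes), where 2.76% of all tested genes were called (0.916% higher and 1.84% lower). Among those calls 33.2% were higher, against 53.3% to 59.5% under 4 other scalings. At an unadjusted p under 0.05 there were 3 of 7, LHX1, ONECUT1 and ESRRB, where 16.1% of all tested genes lay under that value. An exact permutation test of each gene gave the same 3 an unadjusted p under 0.05. Its lowest possible p is 0.000583, reached only where the groups do not overlap. After adjustment over all tested genes only genes at that p were called, 170 in all. The test therefore could not call a gene whose groups overlap, and it called none of the 7. The control and lens values of every one of the 8 genes overlapped, whereas they did not overlap for 1.53% of all tested genes. ONECUT3 had at least 1 CPM in 5 of 14 retinas, under the filter of 7, and is given by its values.

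LHX1, the LIM homeodomain factor of axon-bearing horizontal cells (chromosome 19, 8536207 to 8540686, plus strand, GRCg6a), had a lowest, median and highest level of 1.81, 2.34 and 3.12 CPM in control retinas. In lens retinas these were 1.43, 1.69 and 2.11 CPM. All 7 lens retinas lay below the control median and 5 of 7 below every control. The means were 2.43 CPM ± 0.450 (SD, n = 7) and 1.74 CPM ± 0.233 (SD, n = 7), a ratio of 0.714. The log2 fold change was taken on log2(CPM + 1), which makes the change of a low gene look smaller, and was -0.32 ± 0.089 (SE, 95% interval -0.51 to -0.13). It did not pass over all tested genes (adjusted p = 0.0656, exact permutation p = 0.0035 unadjusted), and its adjusted p ranged from 0.0372 to 0.140 over its alternatives. LHX1 was called when the W level was a covariate (-0.34, adjusted p = 0.0372), without control 63 (-0.37, adjusted p = 0.0308) and without lens 55 (-0.35, adjusted p = 0.0387). Of all 11132 tested genes these fits called 408, 299 and 434, against 307 in the main fit. Without the 3 libraries that lack W transcripts the value of LHX1 was -0.29 (adjusted p = 0.140).

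ONECUT1 (chromosome 10, 9103781 to 9115853, plus strand), a cut and homeodomain factor of early horizontal and ganglion cells, measured 1.82, 2.32 and 2.69 CPM at the lowest, median and highest control retina. The lens retinas measured 1.12, 1.81 and 2.43 CPM. Of the lens retinas, 4 of 7 lay below every control and 6 of 7 below the control median, with lens 47 above that median. The means were 2.32 CPM ± 0.316 (SD, n = 7) and 1.75 CPM ± 0.430 (SD, n = 7), a ratio of 0.752. The log2 fold change was -0.28 ± 0.10 (SE, 95% interval -0.50 to -0.07) and did not pass (adjusted p = 0.155). The exact permutation p was 0.0157, unadjusted.

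ESRRB (chromosome 5, 38840180 to 38965600, plus strand), an orphan nuclear receptor known in the mouse retina from rods, had the opposite sign. It measured 2.24, 3.99 and 5.00 CPM at the lowest, median and highest control retina and 3.94, 5.02 and 7.05 CPM at those of the lens group. Of the lens retinas, 6 of 7 lay above the control median and 4 of 7 above every control. The means were 3.67 CPM ± 0.941 (SD, n = 7) and 5.23 CPM ± 1.01 (SD, n = 7), a ratio of 1.43. Its log2 fold change of 0.43 ± 0.13 (SE, 95% interval 0.15 to 0.70) did not pass (adjusted p = 0.0952, exact permutation p = 0.0111 unadjusted). The adjusted p ranged from 0.0574 to 0.186 over its alternatives, and the lowest came from quantile normalization. An uncharacterized gene on the other strand, LOC107053519 (38908573 to 39074186), overlaps ESRRB with mean levels of 2.47 CPM among controls and 2.26 CPM after lens wear. The library kit keeps strand, but whether counting used it is not given in the sources used here. Values of both genes are therefore uncertain.

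The other genes had means that lay close together. PROX1 (chromosome 3, 21380528 to 21428455, minus strand), a homeodomain factor that promotes horizontal cell fate in the mouse, had a mean of 116 CPM ± 8.54 (SD, n = 7) among controls and 120 CPM ± 8.42 (SD, n = 7) after lens wear. The log2 fold change was 0.048 ± 0.052 (SE, 95% interval -0.062 to 0.16, adjusted p = 0.710). Its interval was the narrowest of the 7 tested genes. CALB1, or calbindin (chromosome 2, 124313483 to 124331356, minus strand), ranged from 35.5 to 56.1 CPM in control and from 37.1 to 49.4 CPM in lens retinas. Its log2 fold change was 0.030 (95% interval -0.17 to 0.23, adjusted p = 0.921). TPM3, an actin-binding tropomyosin (chromosome 25, 2866146 to 2882184, minus strand), had a mean of 9.72 CPM ± 1.12 (SD, n = 7) among controls and 9.74 CPM ± 1.06 (SD, n = 7) after lens wear. Its log2 fold change was 0.0040 (95% interval -0.16 to 0.17, adjusted p = 0.989). ONECUT3 (chromosome 28, 2381764 to 2401390, minus strand) ranged from 0.737 to 1.45 CPM in control and from 0.441 to 1.84 CPM in lens retinas, and lens 51 and lens 55 marked the ends. Fitted without the filter, its log2 fold change was -0.097 ± 0.13 (SE, 95% interval -0.37 to 0.18, adjusted p = 0.834). ATP8B3 overlaps ONECUT3 on the other strand and reached 0.322 CPM, and LOC112532094 overlaps PROX1 on the other strand and reached 0.112 CPM.

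**Figure D2:**
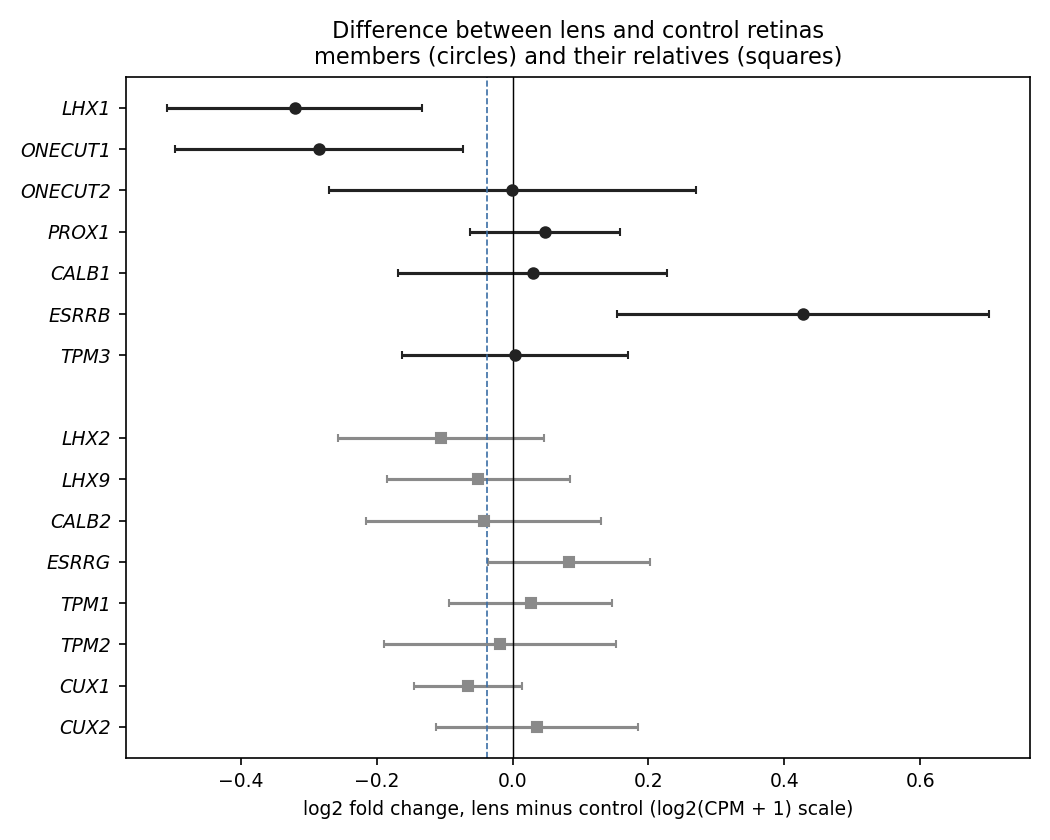
Log2 fold change, lens minus control, on the log2(CPM + 1) scale with its 95% interval, for the 7 tested genes (circles) and 8 tested relatives (squares). The solid line marks 0 and the dashed line the median of all tested genes, -0.038. The intervals of LHX1, ONECUT1 and ESRRB leave out 0. None of the 15 genes was called after adjustment over all tested genes, of which 2.76% were called.

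ONECUT2 (chromosome Z, 398774 to 424592, minus strand), a cut and homeodomain factor that acts beside ONECUT1 in the mouse, had a mean of 41.7 CPM ± 9.33 (SD, n = 7) among controls and 41.8 CPM ± 9.21 (SD, n = 7) after lens wear. The log2 fold change was -0.00024 ± 0.13 (SE, 95% interval -0.27 to 0.27, adjusted p = 0.999). The control retinas ran from 35.8 to 62.4 CPM with a median of 38.1 CPM, and the lens retinas from 33.2 to 58.7 CPM with a median of 37.6 CPM. Its residual SD of 0.28 on the log2 scale was larger than that of 92.8% of tested genes, close to that of ESRRB (0.27, larger than that of 91.6%).

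The 3 highest values of ONECUT2 were those of the libraries without W transcripts: 62.4 CPM in control 65, 58.7 CPM in lens 55 and 50.4 CPM in lens 48. The other 11 retinas lay between 33.2 and 41.4 CPM, and these ranges did not overlap. The means were 57.2 CPM ± 6.13 (SD, n = 3) and 37.5 CPM ± 2.12 (SD, n = 11), a ratio of 1.52. This comparison, chosen after the data were seen, was fitted in limma with a term for lens wear. The log2 difference was 0.61 ± 0.061 (SE, 95% interval 0.48 to 0.74, adjusted p = 9.02e-07), with 3.76% of all tested genes called. It was 0.56 without control 65, 0.68 without lens 48 and 0.58 without lens 55. Among the 11 retinas with W transcripts, the mean of ONECUT2 was 38.3 CPM ± 2.03 (SD, n = 6) in controls and 36.6 CPM ± 2.06 (SD, n = 5) after lens wear. The log2 fold change for lens wear was then -0.061 (limma adjusted p = 0.638).

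ONECUT2 lies on chromosome Z, and most Z genes shared the direction of this difference. Of 554 tested Z genes, 345 were called higher in the 3 retinas (62.3%) and 15 lower, with a median log2 difference of 0.42. Of 10513 tested autosomal genes, 4 were called higher and 24 lower, with a median of 0.0012. The difference of ONECUT2 exceeded that of 74.5% of tested Z genes. The other 6 tested genes are autosomal and none was called in this comparison. Their log2 differences ran from -0.056 for PROX1 to 0.16 for LHX1, and the intervals of all 6 included 0. ISL1, the LIM homeodomain factor of axonless horizontal cells, which also marks bipolar, amacrine and ganglion cells, lies on chromosome Z as well (15143896 to 15157551) and was named after its values were seen. It measured 18.6 CPM in control 65, 18.3 CPM in lens 55 and 15.1 CPM in lens 48, above its highest value of 13.6 CPM in the other 11 retinas. Its log2 difference was 0.56 ± 0.086 (SE, adjusted p = 2.12e-04). ONECUT3, on chromosome 28 and not tested for this difference, measured 1.45 CPM in control 65, 1.84 CPM in lens 55 and 1.09 CPM in lens 48. The other 11 retinas had 0.441 to 1.44 CPM, so these ranges overlapped. That overlap came from control 64 at 1.44 CPM, and the next highest of the 11 was control 57 at 1.02 CPM. The means of ONECUT3 were 1.46 CPM ± 0.377 (SD, n = 3) and 0.864 CPM ± 0.257 (SD, n = 11), a ratio of 1.69.

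**Figure D3:**
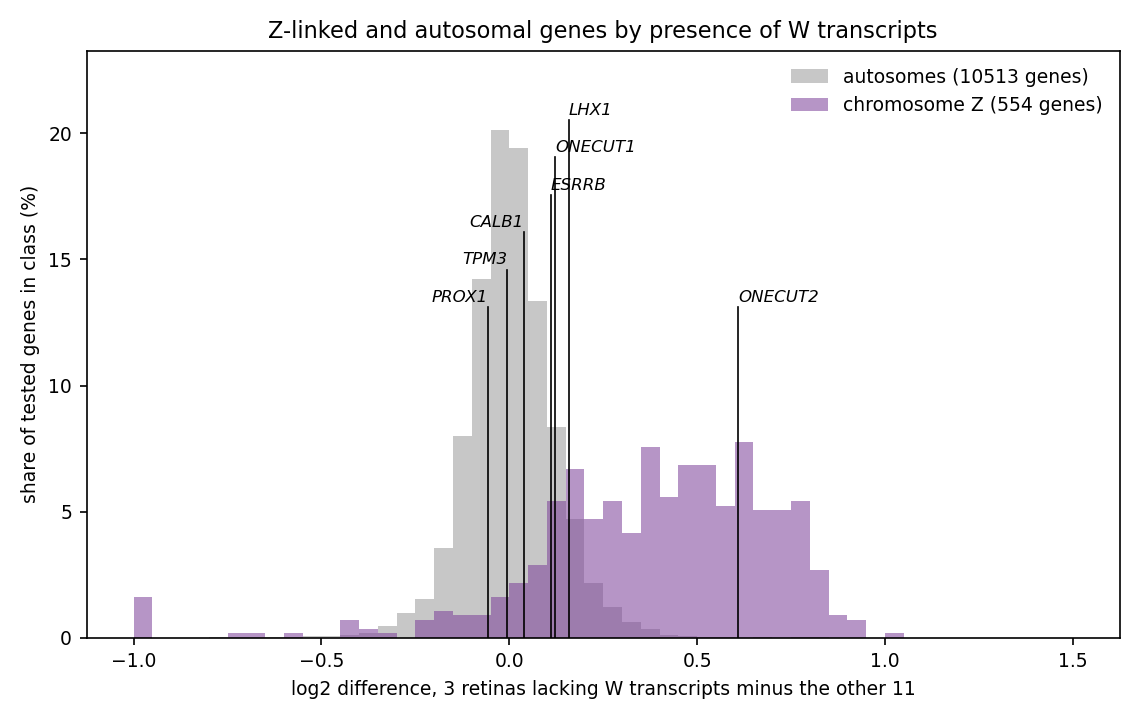
Distribution of the log2 difference between the 3 retinas without W transcripts and the other 11, as a share of tested genes in each class, for autosomal genes (grey) and chromosome Z genes (purple), with values beyond the axis drawn in the end bins. Vertical lines mark the 7 tested genes: ONECUT2 at 0.61 lies among the Z genes and the other 6 lie between -0.056 and 0.16.

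Variation from retina to retina was compared between the 8 genes. Of 28 pairs, correlated on log2(CPM + 1) centred within group, none passed a permutation test within groups at an adjusted p under 0.05 over the 28 pairs, 2 had an unadjusted p under 0.05, both with ONECUT2, and 14 of 28 had a positive Pearson r. Because ONECUT2 falls into separate clusters, its pairs are given within the 11 retinas with W transcripts, where r ran from -0.23 with ONECUT3 to 0.35 with LHX1 (permutation p = 0.526 and 0.319, adjusted p = 0.957 for both). Spearman's rho for these pairs was -0.26 (permutation p = 0.463) and 0.27 (permutation p = 0.450). ONECUT1 and ONECUT3 had r = 0.58 over all 14 retinas (permutation p = 0.0561, adjusted p = 0.505) and rho = 0.74 (permutation p = 0.00629, adjusted p = 0.176). Their r was 0.52 without the 2 retinas farthest from the median of ONECUT1, and 0.69 within the 11 retinas (permutation p = 0.0281, adjusted p = 0.399). PROX1 and TPM3 had the most negative value, r = -0.52 (permutation p = 0.0722, adjusted p = 0.505) and rho = -0.53 (permutation p = 0.068, adjusted p = 0.481). Their r was -0.51 without the 2 retinas farthest from the median of PROX1, and -0.47 within the 11 retinas (permutation p = 0.162). LHX1 and ONECUT1, which both had negative fold changes for lens wear, had an r of 0.040 (permutation p = 0.884, adjusted p = 0.992) and a rho of 0.12 (permutation p = 0.698).

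**Figure D4:**
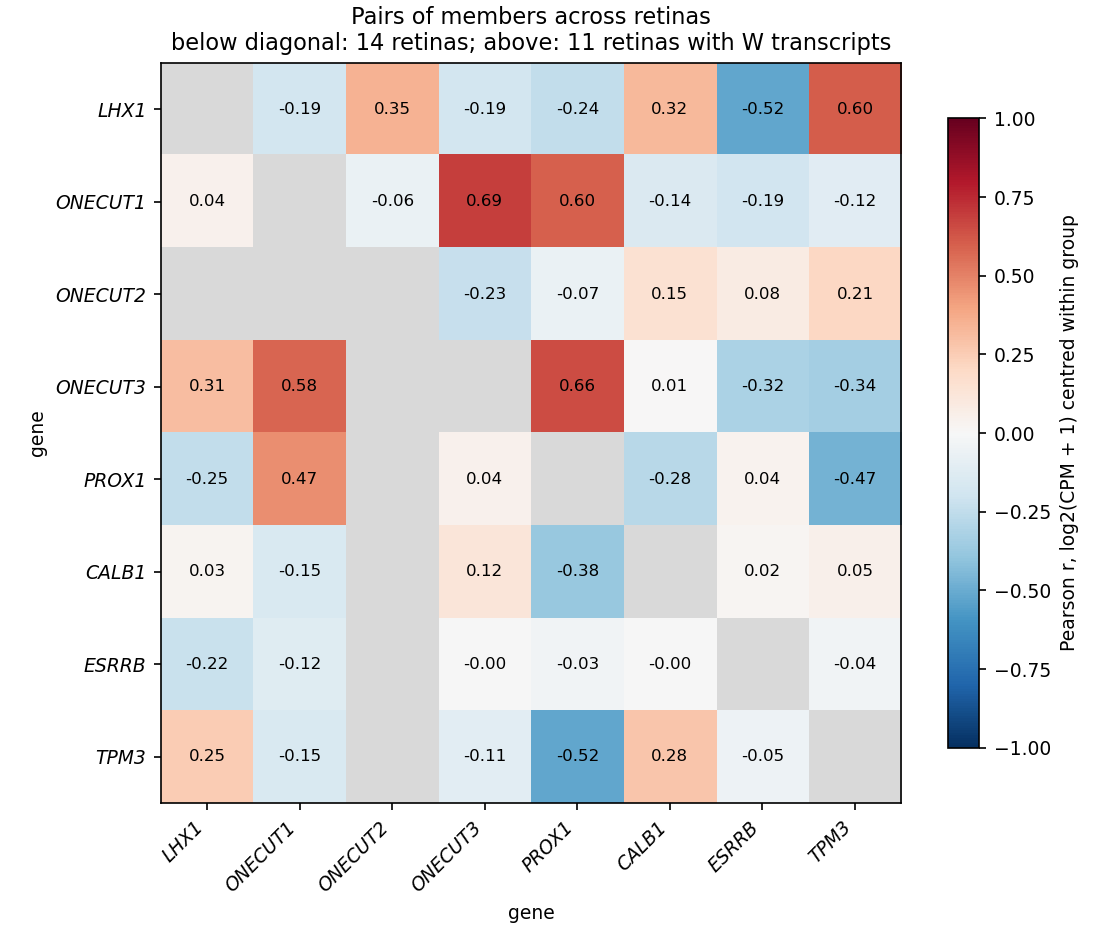
Pearson r between pairs of the 8 genes on log2(CPM + 1) centred within group, over 14 retinas below the diagonal and over the 11 retinas with W transcripts above it. Grey cells below the diagonal are pairs with ONECUT2, whose values fall into separate clusters, and the values run from -0.52 to 0.69.

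Among all tested genes with a symbol, the 3 most like each of the 8 genes over the 14 retinas were found by Pearson r on the same centred values, as a description. The 3 most like ONECUT2 were CZH9orf72, PIAS2 and PPIP5K2, all on chromosome Z, with r of 0.96 each over 14 points that fall into separate clusters. All of the 100 genes most like ONECUT2 lay on chromosome Z, which holds 554 of all 11132 tested genes. Of the 100 most like ONECUT3, itself on chromosome 28, 62 lay on Z. That number was 6 for LHX1, 2 for ONECUT1, 1 for CALB1 and 0 for PROX1, ESRRB and TPM3. The 3 most like LHX1 were PIGV (r = 0.91), BRD2 (0.85) and PNPLA6 (0.82), and for ONECUT1 SCN9A (0.78), NOS1 (0.74) and CDK11A (0.74). KIF2A, TMEM183A and PIAS4 came first for ONECUT3, FAN1, DPP10 and USP28 for PROX1, and RPS19BP1, PPP2R5A and VSIG10L for CALB1. ESRRB had PHOSPHO1, HEMK1 and ARHGEF12, and TPM3 had ERMARD, DCAF5 and RRP9, with r between 0.81 and 0.89 for these 15 genes. The points share their libraries and depth. Each r was picked as among the highest over many tested genes on 14 points, and none was tested.

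Relatives of the 8 genes were read from the same fit. Of 8 tested relatives 0 were called, where 2.76% of all tested genes were. An unadjusted p under 0.05 was reached by 0 of 8 relatives and by 16.1% of all tested genes. Their log2 fold changes for lens wear ran from -0.11 for LHX2, a LIM homeodomain factor of Muller glia, to 0.083 for ESRRG, the receptor related to ESRRB. ESRRG averaged 20.9 CPM among controls and 22.3 CPM after lens wear (adjusted p = 0.512). The tropomyosins TPM1 and TPM2 had 0.027 (adjusted p = 0.871) and -0.018 (adjusted p = 0.941), and the calretinin gene CALB2 had -0.043 (adjusted p = 0.855). LHX9, another LIM homeodomain factor, had -0.051 (adjusted p = 0.761), and the cut homeodomain genes CUX1 and CUX2 had -0.066 (adjusted p = 0.411) and 0.036 (adjusted p = 0.859). Tropomyosins share long stretches of sequence, and the handling of reads that match several genes is not given in the sources used here. Their values are uncertain.

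Other genes tied to horizontal cells came from 2 lists. The lists were chosen with earlier results of these data known, so their counts and medians are a description only. Of 14 tested genes of horizontal cell specification, 3 were lower in lens retinas and 0 were higher, where 1.84% of all tested genes were lower and 0.916% higher. The median log2 fold change of the list was -0.12, beside -0.038 for all tested genes. NEUROD4, a bHLH factor of early retinal neurons, averaged 2.75 CPM ± 0.540 (SD, n = 7) among controls and 1.76 CPM ± 0.262 (SD, n = 7) after lens wear. Its log2 fold change was -0.44 ± 0.098 (SE, limma adjusted p = 0.0202). All 7 lens retinas lay below its control median and 5 of 7 below every control, and its call was lost in 2 of 14 alternatives, among them the fit without the 3 libraries that lack W transcripts (adjusted p = 0.0619). MEIS2 fell by 0.21 ± 0.048 on the log2 scale (SE, adjusted p = 0.0237) and TFAP2B by 0.21 ± 0.046 (SE, adjusted p = 0.0178). They are factors of amacrine cells, and they lost their calls in 6 and 5 of 15 alternatives, each of the 4 other scalings among them. MEIS2 also lost its call without control 65, lens 48 or lens 53 (adjusted p = 0.0522 to 0.0574). SALL3, which horizontal cells of the mouse need, averaged 51.3 CPM among controls and 56.7 CPM after lens wear (adjusted p = 0.161), and RORB measured 48.2 and 47.9 CPM (adjusted p = 0.943).

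Of 29 tested genes of horizontal cell synapses, coupling and surface, 3 were lower, 1 was higher and 25 did not pass, where 1.84% of all tested genes were lower and 0.916% higher. The median log2 fold change of the list was -0.078, beside -0.038 for all tested genes. The hemichannel gene PANX1, known from fish horizontal cells, averaged 3.89 CPM ± 0.436 (SD, n = 7) among controls and 2.88 CPM ± 0.463 (SD, n = 7) after lens wear. The log2 difference was -0.34 ± 0.085 (SE, limma adjusted p = 0.0393). Of the lens retinas, 6 of 7 lay below every control, and its call was lost in 7 of 14 alternatives and in 9 of 14 fits that left out 1 library (adjusted p = 0.0520 to 0.0849). It kept its call without control 57, control 62, lens 47, lens 48 or lens 55. The inhibitory vesicle transporter SLC32A1 (-0.36 ± 0.081 SE, adjusted p = 0.0207) and the neurofilament NEFM (-0.37 ± 0.082 SE, adjusted p = 0.0192) were the other members that fell. SLC32A1 lost its call in 4 of 15 alternatives (adjusted p = 0.0504 to 0.0877) and NEFM in 1 of 15, the exact permutation test (adjusted p = 0.0983). The connexin GJD2 (0.21 ± 0.054 SE, adjusted p = 0.0483) was the member that rose, and it lost its call in 6 of 15 alternatives. Its call was also lost in 12 of 14 fits that left out 1 library (adjusted p = 0.0532 to 0.0966), all but those without control 57 or lens 46. Which cells the GJD2 reads came from was not tested. The glutamate receptors GRIA2 (0.062, adjusted p = 0.442) and GRIA4 (-0.040, adjusted p = 0.652) and the surface proteins MEGF10 (-0.078, adjusted p = 0.662) and MEGF11 (-0.18, adjusted p = 0.172), which space horizontal cells in the mouse, did not pass.

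Some genes of these lists also mark amacrine and ganglion cells. In the lists of other cell types, too, counts stand beside 1.84% of all tested genes lower and 0.916% higher. Among amacrine markers 3 of 12 tested were lower, 0 were higher and 9 did not pass. The lower ones were TFAP2B, MEIS2 and the glycine transporter SLC6A9. The call of SLC6A9 was lost in 9 of 15 alternatives, each of the 4 other scalings among them. It was also lost in 10 of 14 fits that left out 1 library. Only the fits without control 57, lens 46, lens 51 or lens 55 kept it. The summed level of the amacrine list was 947 to 1041 CPM in control and 864 to 932 CPM in lens retinas, with no overlap. Ganglion cell markers, with 1 of 11 lower (NEFM), 0 higher and 10 not passing, summed to 279 to 350 CPM and 241 to 305 CPM. TFAP2B, MEIS2 and NEFM are counted in the horizontal cell lists as well. The part of these cells in the values of the horizontal cell lists was not tested. For the other cell types the summed ranges of the groups overlapped. In the photoreceptor list 1 of 13 was higher (OPN1LW) and 5 were lower (PDE6B, MAFA, NR2E3, PDE6C and ARR3). In the bipolar, Muller glia, oligodendrocyte, pigment epithelium and blood, vessel and microglia lists 0 of 8, 7, 3, 2 and 3 tested members were called, with 3, 0, 0, 0 and 0 at an unadjusted p under 0.05. In the horizontal cell specification and synapse lists, 7 of 14 and 12 of 29 lay under that value. The amacrine, ganglion cell and photoreceptor lists had 7 of 12, 4 of 11 and 9 of 13. Of all tested genes 16.1% lay under it, and some genes are in more than 1 list. All lists were chosen with earlier results of these data known. Their counts beside the shares of all tested genes are therefore a description, and no list was tested. Of the pigment epithelium markers, 6 of 8 were under the filter, BEST1, TYR, PMEL, MLANA, TTR and TYRP1.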

How the data were processed

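The authors deposited 1 table of CPM values for 14 libraries with 0.0001 added to every entry. STAR, Partek and the build GRCg6a are named per the submitters' processing notes. No label names the counting rule or its strand setting. The listed genes held 31.7% to 34.2% of the scaling total. Of values under 100 reads, 92.7% to 93.5% were whole reads within 0.02 of a read, so no count model was used. All 14 values of each of the 8 genes other than PROX1 (5 of 14) were whole within 0.05 of a read.

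On log2(CPM + 1), limma 3.58.1 under R 4.3.3 compared the groups, with the prior variance following intensity. A gene was tested if 7 or more of 14 samples reached 1 CPM. P-values were adjusted over all tested genes, at a threshold of 0.05. The fit was tested on simulated data. Exact two-sided permutation used all 3432 assignments of 14 samples to groups of 7. Pairs were permuted within groups (100000 two-sided resamples, 20000 with a library left out). Libraries with a W sum under 0.1 of the median were taken as lacking W transcripts. Chromosome names came from RefSeq symbols (GRCg7b), and 15419 of 18631 symbols matched. Start and stop are as deposited. Figures used matplotlib version 3.10.9.

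The named genes were the 8 genes, tested relatives, list genes that passed, the 3 genes most like each, and overlapping genes. ISL1, SALL3, RORB, GRIA2, GRIA4, MEGF10, MEGF11, ATOH7, FOXN4 and GJA10 were named after their values were seen. The genes and lists were chosen with earlier results of these data known. Alternatives covered the pseudocount, filter, scaling, prior, weights, test, covariates and samples. Genes of the lists that had no row by that symbol, PTF1A, LHX5 and GRM6 among them, were not analysed here.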

Additional observations from a re-analysis of the deposited data

Results flagged for a closer look

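ONECUT2 in control 65 was 62.4 CPM, the highest of 7 control retinas, and its gap to the next control exceeded Dixon's 95% critical value. It was the only 1 of 16 sets (8 genes in both groups) to do so, and chance flags about 1 set in 20. Control 65 is the control library without W transcripts. In the lens group the 2 libraries without W transcripts, at 58.7 and 50.4 CPM, lay next to each other and neither passed that value.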

How the results depend on the processing

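Of 101 values of the 7 tested genes under the alternatives, 92 kept their direction and side of the threshold, 1 gained a call (LHX1) and 8 changed sign, all of genes that were not called. The sign of ONECUT2 changed with log2(CPM + 5) (5.38e-05), trimmed-mean scaling (0.039), median-of-ratios scaling (0.041), quantile normalization (0.040), a common sum over listed genes (0.032) and the title letter as a covariate (0.0010). Without the 3 libraries that lack W transcripts CALB1 had -0.077 and TPM3 -0.058. With 1 library left out, ONECUT2 ranged from -0.085 to 0.099, CALB1 from -0.011 to 0.097 and TPM3 from -0.032 to 0.039. The number of the 8 genes called was 1 with the W level as a covariate, and 0 to 1 with 1 library left out. Of all 11132 tested genes, 408 were called with the W level as a covariate, and 236 to 434 with 1 library left out. The exact permutation test, which after adjustment could call only genes whose groups do not overlap, called 170 genes in place of 307. Of these, 3 in place of 14 were genes of the lists. Without the 3 libraries that lack W transcripts, 252 of all tested genes were called, 8 of them in the lists. The share of calls that were higher was 33.2% for the deposited scaling and 53.3% to 59.5% for the 4 others. The filter of 10 CPM left out LHX1, ONECUT1, ESRRB and TPM3. The difference of ONECUT2 by W transcripts was called under every alternative tried for it (0.56 to 0.68). No pair of genes was called under any alternative. No paired analysis was possible because the groups share no replicate number. The causes were not tested. For LHX1, ONECUT1 and ONECUT3, at most 103 reads a library, depth limits the precision in part. Counting alone would give an SD of 11.4%, 11.5% and 16.4% of their means. The SD over the 14 retinas was 23.9%, 23.1% and 37.3% of their means.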

Other observations

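Some genes tied to horizontal cells were too low to be tested. ATOH7, a bHLH factor of retinal progenitors that precede ganglion and horizontal cells, averaged 0.225 CPM ± 0.101 (SD, n = 7) among controls and 0.377 CPM ± 0.0915 (SD, n = 7) after lens wear, from 3 to 22 reads a library. All 7 lens retinas lay above its control median and 4 of 7 above every control. ATOH7 was named after its values were seen, and whether it differs with lens wear was not tested. FOXN4, which acts upstream of horizontal and amacrine cell fates, had at most 0.254 CPM. GJA10, a connexin that couples horizontal cells in the mouse, averaged 0.234 CPM ± 0.0731 (SD, n = 7) among controls and 0.303 CPM ± 0.0867 (SD, n = 7) after lens wear, and these groups overlapped.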
